A study of Mus musculus with 3 samples.

Results

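Genes that copy DNA and supply its building blocks were examined in the fetal liver of mouse embryos at stage E14.5, in 3 genotypes with 1 array each. A list of 47 genes had been set by symbol, and every probe whose annotated symbol was on it was taken. Of the 47, 46 were measured, among 13697 genes with a value in all 3 arrays. Chaf1a, the large subunit of chromatin assembly factor 1, was not analysed here. A gene entered the comparisons if its mean level lay above the typical probe level of the arrays, and 45 members were among the 7951 genes that did. Rrm1, the large subunit of ribonucleotide reductase, was too dim.

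The first array held RNA of wild-type embryos, the second RNA of DNase II-deficient embryos, and the third RNA of embryos lacking both DNase II and IFN-IR (DNase II-/- IFN-IR-/-, called double-deficient here). DNase II is an acid nuclease of lysosomes that lets macrophages break down DNA they engulf, such as nuclei expelled by erythroid cells, and IFN-IR is the label's name for an interferon receptor. Wild-type embryos carried neither deficiency, and both other groups lacked DNase II. The sources used here do not state the strain, the design of the alleles or whether RNA of several embryos was pooled. Each value is the deposited normalised intensity, which is relative to the array's typical probe and has no unit. With 1 array per genotype there was no replicate spread and no test. Differences are log2 of the ratio of 2 arrays, and counts use 1.5-fold (a log2 difference of 0.58) and 2-fold.

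DNA replication starts when the origin recognition complex, Cdc6 and Cdt1 load the MCM helicase on chromatin in G1 phase. Kinases then turn the loaded helicase into a moving fork by adding Cdc45 and the GINS complex, and the polymerases, the sliding clamp and the single-strand binding protein RPA copy both strands. Ribonucleotide reductase, thymidylate synthase, thymidine kinase and dUTPase keep the deoxynucleotide pools filled, and E2F factors switch on many of these genes as cells pass from G1 to S phase. Blood forms mainly in the liver at mid-gestation, where dividing erythroid precursors are abundant.

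The targeted genes did not mark the genotypes. The Dnase2a probe read 40.4, 48.6 and 39.7 in RNA of wild-type, of DNase II-deficient and of double-deficient liver, and those of the type I interferon receptor genes gave 3.60, 4.66 and 3.17 for Ifnar1 and 0.574, 0.485 and 0.483 for Ifnar2. The sources used here do not say where these probes lie relative to the deletions, and the Ifnar2 probe was below the median of every array. Genotypes therefore rest on the labels. The tissue label matched its markers: summed over 9 measured hepatocyte markers of 12 listed, intensity was 3173, 3247 and 2886, and over 15 erythroid markers of 18 it was 734, 285 and 627.

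Promoter sequence is shown for the member with the largest difference between DNase II-deficient and wild-type in each of 5 roles (Ccne1, Rrm2, Rpa2, Mcm3 and Cdc6), because E2F binding is a known switch of many of these genes. Sequences are from RefSeq (GRCm38.p6), 5′ to 3′ on the gene's strand, and end at the base before the annotated start. Capitals mark matches to any of 3 motifs, sought on both strands: the E2F core (TTTCCCGC or TTTGGCGC or TTTCGCGC or TTTGCCGC), the CCAAT box and the cell cycle homology element (TTTGAA or TTCGAA). Ccne1, on the minus strand at chr7:38107491-38107740, holds none of the motifs:
Ccne1: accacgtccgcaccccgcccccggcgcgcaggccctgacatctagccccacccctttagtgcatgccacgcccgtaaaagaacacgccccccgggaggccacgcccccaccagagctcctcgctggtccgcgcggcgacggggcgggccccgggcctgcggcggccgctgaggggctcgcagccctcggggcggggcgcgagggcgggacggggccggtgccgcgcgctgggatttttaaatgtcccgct
Cdc6, on the plus strand at chr11:98907901-98908150, holds 1 E2F core match, which begins 138 bases before the start and reads on the opposite strand:
Cdc6: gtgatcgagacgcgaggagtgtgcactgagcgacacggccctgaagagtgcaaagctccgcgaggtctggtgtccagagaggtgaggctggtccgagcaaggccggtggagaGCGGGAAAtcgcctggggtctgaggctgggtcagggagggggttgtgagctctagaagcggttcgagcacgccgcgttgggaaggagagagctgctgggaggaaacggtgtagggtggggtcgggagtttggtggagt
Mcm3, on the minus strand at chr1:20820313-20820562, holds 3 CCAAT boxes before its start:
Mcm3: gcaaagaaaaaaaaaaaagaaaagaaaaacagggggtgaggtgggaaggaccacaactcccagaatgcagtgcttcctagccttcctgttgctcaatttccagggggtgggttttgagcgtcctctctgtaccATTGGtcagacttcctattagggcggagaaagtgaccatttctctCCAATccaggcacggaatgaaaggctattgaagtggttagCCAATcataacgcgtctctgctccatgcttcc
Its 2 E2F core matches lie just after the start, at chr1:20820267-20820293:
Mcm3 after the start: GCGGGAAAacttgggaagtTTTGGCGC
Rrm2, on the plus strand at chr12:24708004-24708253, holds 1 CCAAT box and no E2F core of these letters:
Rrm2: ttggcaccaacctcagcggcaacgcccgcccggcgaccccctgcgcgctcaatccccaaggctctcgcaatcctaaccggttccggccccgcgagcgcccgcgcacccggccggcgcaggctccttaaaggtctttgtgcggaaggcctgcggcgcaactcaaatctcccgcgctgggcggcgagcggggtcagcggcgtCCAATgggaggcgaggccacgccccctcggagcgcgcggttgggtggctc
Rpa2, on the plus strand at chr4:132768110-132768359, holds 3 CCAAT boxes, all on the opposite strand:
Rpa2: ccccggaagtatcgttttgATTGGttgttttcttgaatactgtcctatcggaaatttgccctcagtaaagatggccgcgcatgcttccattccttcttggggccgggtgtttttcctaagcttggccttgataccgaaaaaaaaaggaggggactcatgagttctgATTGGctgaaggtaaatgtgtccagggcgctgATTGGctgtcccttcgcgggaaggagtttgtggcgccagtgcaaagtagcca
Mcm6, on the minus strand at chr1:128359706-128359955, was added after its values were seen, as the window with the most E2F core matches among the sequences shown. A pair of them overlaps on opposite strands 110 bases before the start, and a further match begins 47 bases before it:
Mcm6: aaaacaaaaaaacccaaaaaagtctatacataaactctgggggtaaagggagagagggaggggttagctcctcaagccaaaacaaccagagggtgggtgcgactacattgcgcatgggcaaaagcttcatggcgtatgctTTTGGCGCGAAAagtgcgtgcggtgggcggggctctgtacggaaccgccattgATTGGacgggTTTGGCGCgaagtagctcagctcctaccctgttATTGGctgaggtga

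Of the 46 measured members, 38 had a promoter in the RefSeq table, 300 bases from 250 before the start to 50 after it. The E2F core was found in 12 of them, or 31.6%, against 2.61% of all 27025 genes in the table and 4.62% of the 6476 with a promoter among the genes compared on the arrays. Those 12 were Cdc6, Cdt1, Lig1, Mcm3, Mcm5, Mcm6, Mcm7, Orc1, Pola1, Pold1, Pole2 and Rfc3. A CCAAT box was found in 55.3% of member promoters, against 41.1% of all genes in the table and 43.0% of those compared on the arrays. The cell cycle homology element was found in 18.4%, between the 21.7% of all genes and the 17.4% of those compared. Between DNase II-deficient and wild-type the median difference was -0.76 over the 12 members with the E2F core and -0.81 over the 25 compared members without it. For the CCAAT box it was -0.70 over 20 with it and -0.81 over 17 without, and for the cell cycle homology element -0.45 over 7 with it and -0.82 over 30 without. These are letter matches and not measured sites.

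All 45 members compared were lower in the DNase II-deficient array than in the wild-type array, where 67.0% of all genes compared were lower. Their median log2 difference was -0.81, a fall to 1.75-fold below wild-type, against -0.21 over all genes compared. Brighter genes were lower too: for the 500 genes nearest in level to each member, the median ran from -0.35 to -0.05. With the level filter at the 75th percentile, 39 members had a median of -0.81, against -0.27 over all genes that passed. Of those members 25 were at least 1.5-fold lower, against 22.8% of the genes that passed. At least 1.5-fold lower were 30 of the 45, against 19.9% of all genes, and at least 2-fold lower were 14, against 5.76%. No member was higher by 1.5-fold, where 11.4% of all genes were, or by 2-fold, where 6.10% were. The members ranged from -1.51 for Ccne1 to -0.19 for Cdc7, and the SD of their differences was 0.32. Around all genes the spread of this difference, a scaled median absolute deviation, was 0.48, so a single member near the median is not set apart by its own value. Scaling moved these numbers: with each comparison centred on the median of all genes, 23 members were 1.5-fold lower against 10.8% of all genes, and with cyclic loess 17 against 10.3%. None of the 45 lay below the median of any array. Of the 46 measured members, 45 were lower under either of these settings, the exception being Cdc7 at 0.02 with centring and Pold1 at 0.02 with loess. Among all genes compared, 51.4% of the 2-fold calls were higher with the values as deposited, and 64.1% to 72.4% under other scalings.

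**Figure D1:**
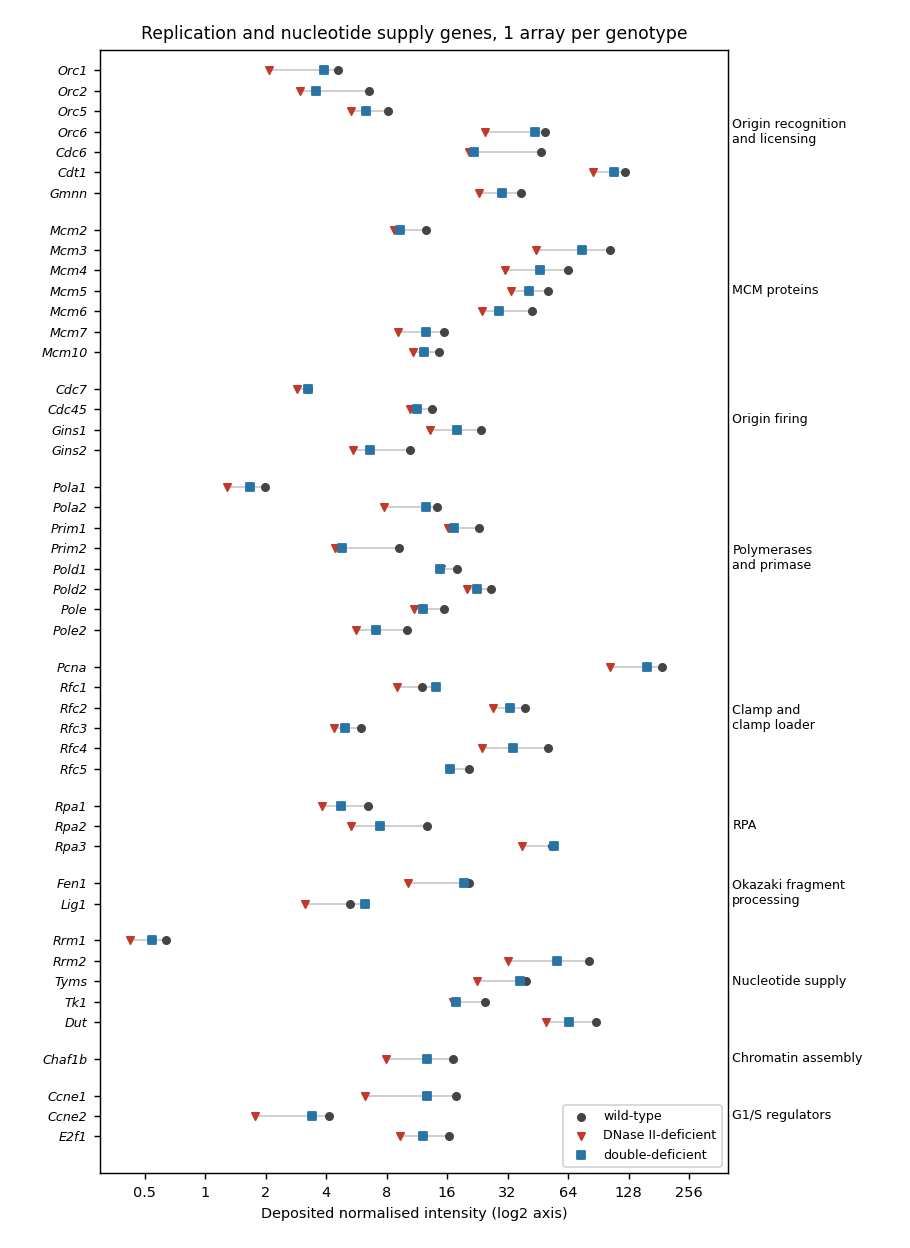
Deposited normalised intensity of the 46 measured members (log2 axis), grouped by role, with 1 point per array: circle, wild-type; triangle, DNase II-deficient; square, double-deficient. The DNase II-deficient point is the lowest for every member but Pold1, where the double-deficient array read 14.7 and the DNase II-deficient array 14.9.

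**Figure D2:**
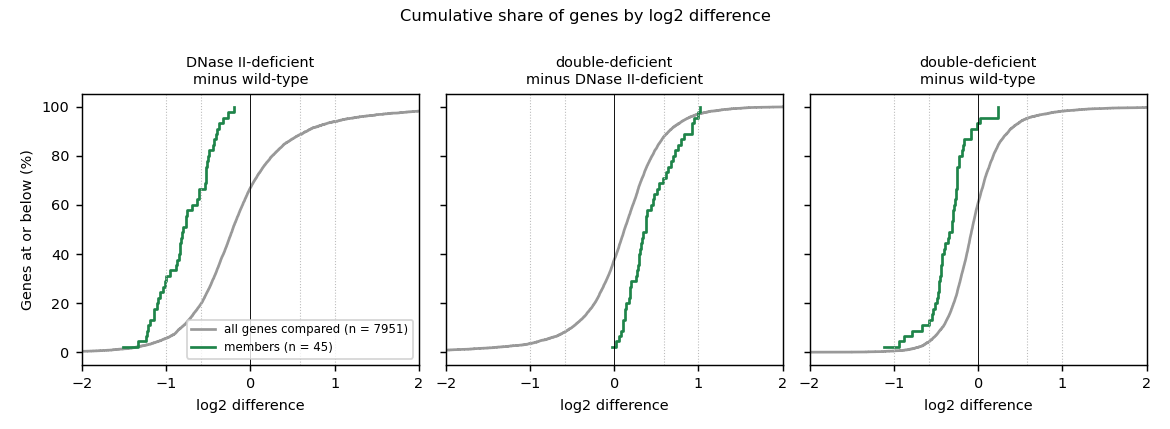
Cumulative share of genes (percent) by log2 difference in each of the 3 comparisons, for the 45 members compared and for all 7951 genes compared, with dotted lines at 1.5-fold and 2-fold. The curve of the members lies to the left of that of all genes in the outer panels and to its right for most of its length in the middle panel.

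The 7 members that recognise origins and license them had a median of -1.0, and all were lower, where 67.0% of all genes compared were. In the DNase II-deficient array, 6 were 1.5-fold lower, against 19.9% of all genes, and 4 were 2-fold lower, against 5.76%. Orc3 and Orc4, further subunits of the origin recognition complex that are not members, were higher there, by 0.46 and 0.32. Orc1, the largest subunit of the origin recognition complex, read 4.57, 2.07 and 3.92 in wild-type, in DNase II-deficient and in double-deficient liver, and all triples below keep this order. Orc6, another subunit, gave 49.4, 24.7 and 43.9. For both, the DNase II-deficient array was the low one and the other arrays lay close together. Orc2 read 6.56, 2.96 and 3.57 and differed in that the double-deficient array stayed near the DNase II-deficient one. Orc5 read 8.09, 5.30 and 6.32, with the double-deficient value between the other two.

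Cdc6, the ATPase that joins the origin complex to bring in the helicase and whose promoter is printed above, read 47.2, 20.6 and 21.8. Both arrays lacking DNase II were low and close to each other. Its difference from wild-type was -1.19 in the DNase II-deficient array and -1.11 in the double-deficient array. Cdt1, its partner in loading, had the smallest difference of the group, with 123, 85.4 and 108. Gmnn encodes geminin, which holds Cdt1 inactive after S phase begins, and read 37.2, 23.0 and 30.1. The loader and its inhibitor were thus lower in the same array, by -0.53 and -0.69.

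The MCM genes encode the 6 subunits of the replicative helicase, Mcm2 to Mcm7, and Mcm10, a factor that helps activate it. All 7 were lower in the DNase II-deficient array, where 67.0% of all genes compared were, with a median of -0.77. At 1.5-fold 5 were lower, against 19.9% of all genes, and at 2-fold 2 were, against 5.76%. Mcm3 read 104, 44.3 and 75.2 and Mcm4 63.8, 31.0 and 46.2. Mcm6 read 42.3, 23.7 and 29.1, Mcm7 15.5, 9.07 and 12.6 and Mcm5 50.7, 33.4 and 41.1. In each of these subunits the order of the arrays was the same, with wild-type highest, double-deficient between and DNase II-deficient lowest. Mcm2 lay under the 1.5-fold line with 12.6, 8.73 and 9.36, and Mcm10 had the smallest difference of the 7 with 14.55, 10.8 and 12.3. Probes for subunits of 1 complex therefore gave unequal differences between arrays, from -1.23 for Mcm3 to -0.53 for Mcm2. That span is below 0.87, the 90th percentile of the gap between 2 probes of 1 gene, so unequal change of the subunits is not shown. No second probe measured any MCM gene.

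The 4 factors that fire the licensed origin had a median of -0.61 and ran from -0.95 for Gins2 to -0.19 for Cdc7. Gins1 and Gins2, subunits of the GINS complex that completes the active helicase, read 23.5, 13.1 and 17.8 and 10.5, 5.41 and 6.59. Both were at least 1.5-fold lower in the DNase II-deficient array. Cdc45, which also belongs to that helicase, read 13.5, 10.4 and 11.3, a difference of -0.37. Cdc7, the kinase that phosphorylates the MCM subunits, read 3.27, 2.85 and 3.24 and was the member with the smallest difference of all. Its value in the double-deficient array was almost that of wild-type.

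Of 8 polymerase and primase genes, 4 were at least 1.5-fold lower in the DNase II-deficient array, against 19.9% of all genes compared. At 2-fold 1 was lower, against 5.76% of all genes, and the median of the 8 was -0.58. Polymerase alpha and primase start each new fragment with a short primer. Of their genes, Prim2, the large primase subunit, read 9.27, 4.41 and 4.81, and Pola2, the accessory subunit of polymerase alpha, read 14.3, 7.76 and 12.6. Wild-type was highest in both, but the double-deficient array stayed low for Prim2 and returned near wild-type for Pola2. Pola1, the catalytic subunit, was dim and read 1.99, 1.28 and 1.67, while Prim1, the catalytic primase subunit, read 23.1, 16.2 and 17.4, a difference of -0.51. Pole2, an accessory subunit of polymerase epsilon of the leading strand, read 10.1, 5.61 and 7.09, and Pole, its catalytic subunit, read 15.4, 11.0 and 12.1. A second Pole2 probe gave a smaller difference, -0.35 against -0.85. Pold1, the catalytic subunit of the lagging-strand polymerase delta, read 17.8, 14.9 and 14.7, and its partner Pold2 read 26.4, 20.1 and 22.6. Pold1 was the only member compared that was not higher in the double-deficient than in the DNase II-deficient array, by -0.02.

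The sliding clamp that tethers the polymerases is encoded by Pcna, and the 5 Rfc genes encode its loader. Pcna read 189, 103 and 157, a difference of -0.87 between DNase II-deficient and wild-type. Rfc4 read 50.9, 23.8 and 33.9 and was the only loader subunit past 1.5-fold. Rfc5 had the smallest difference of the loader, with 20.5, 16.3 and 16.6. Rfc1, the largest subunit, read 11.9, 9.03 and 14.1 and was the one loader gene above wild-type in the double-deficient array. Rfc2 read 39.3, 27.0 and 33.0 and Rfc3 5.93, 4.36 and 4.99, differences of -0.54 and -0.45. A second probe of Rfc2 gave a difference of -0.17 in the same direction.

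RPA coats the single-stranded DNA that the helicase exposes, as a complex of 3 subunits. Rpa2 read 12.7, 5.35 and 7.37, more than 2-fold lower in the DNase II-deficient array. Rpa1, the subunit that carries most of the DNA binding, read 6.45, 3.81 and 4.75. Rpa3, the smallest subunit, read 53.4, 37.7 and 54.4, with the wild-type and double-deficient arrays at nearly the same level. Okazaki fragments are trimmed by the flap nuclease Fen1 and sealed by DNA ligase 1, the product of Lig1. Fen1 read 20.5, 10.2 and 19.4 and Lig1 5.28, 3.12 and 6.23. In both genes the DNase II-deficient array alone was low, and the double-deficient array was within 0.24 on the log2 scale of wild-type.

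Of the genes that supply deoxynucleotides, Rrm2 showed the largest difference. It encodes the small, S phase subunit of ribonucleotide reductase and read 81.8, 32.3 and 56.1, a difference of -1.34 that 2.30% of all genes compared reached or passed. Tyms, thymidylate synthase, read 39.4, 22.5 and 37.1, and Dut, the dUTPase that keeps uracil out of DNA, read 88.6, 49.9 and 64.8. All of these were lowest in the DNase II-deficient array, with Tyms nearly back at the wild-type level in the double-deficient array and the other genes between. Tk1, the thymidine kinase of dividing cells, had the smallest difference with 24.6, 17.1 and 17.7. Its double-deficient value stayed beside the DNase II-deficient one. Rrm1, below the level filter, read 0.636, 0.424 and 0.545, where noise of the subtracted background is a large share of the value.

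Chaf1b, a subunit of the factor that deposits histones behind the fork, read 17.2, 7.95 and 12.6. The regulators at the G1/S boundary gave the largest median of any role, -1.22 over 3 genes. Ccne1 and Ccne2 encode the E-type cyclins that activate Cdk2 at S phase entry. Ccne1 read 17.8, 6.25 and 12.7, a difference of -1.51 that 1.45% of all genes compared reached or passed, and Ccne2 read 4.11, 1.77 and 3.40. E2f1, the activator E2F that is itself an E2F target, read 16.3, 9.34 and 12.2. For both cyclins the DNase II-deficient array was the low one of the 3 by a wide margin, while E2f1 had its double-deficient value near the middle.

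In the comparison of the double-deficient with the DNase II-deficient array, 44 of 45 members were higher, where 62.2% of all genes compared were. This comparison shares the DNase II-deficient array with the previous one, so the comparisons are not independent. The median was 0.38 against 0.12 over all genes. For genes nearest in level to each member, the median ran from 0.04 to 0.25, so part of the members' rise was shared by genes of like level. With the level filter at the 75th percentile, the medians were 0.34 over 39 members and 0.16 over all genes that passed. Of the 46 measured members, 45 were higher with the values as deposited, 40 with quantile normalization or centring and 36 with cyclic loess. At least 1.5-fold higher were 13 members, against 12.3% of all genes, and 2-fold higher was 1, Ccne1, against 2.99%. No member was lower by 1.5-fold or 2-fold, where 8.31% and 3.63% of all genes were. The 13 were Orc1, Orc6, Mcm3, Pola2, Pcna, Rfc1, Fen1, Lig1, Rrm2, Tyms, Chaf1b, Ccne1 and Ccne2. Lig1 lay just short of 2-fold, at 1.996 times. By role, the medians ran from 0.16 for the polymerases, which became -0.01 with cyclic loess, to 0.96 for the Okazaki fragment genes, and the G1/S regulators had 0.94.

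The third comparison sets the double-deficient array against wild-type and shares an array with each of the others. Of 45 members, 42 were lower, where 60.9% of all genes compared were, with a median of -0.31 against -0.07. At least 1.5-fold lower were 6, against 4.29% of all genes, and 2-fold lower was 1, Cdc6, against 0.591%. None was 1.5-fold higher, where 4.68% of all genes were. The 6 were Cdc6, Prim2, Orc2, Rpa2, Gins2 and Rfc4, with differences of -1.11, -0.95, -0.88, -0.78, -0.67 and -0.59. Each had a value in the double-deficient array that lay nearer to the DNase II-deficient than to the wild-type array. A difference as low as that of Cdc6 was seen in 0.36% of all genes compared. The Cdc6 value rests on 1 probe, since its other probe was below the floor set for dim values in all 3 arrays. Gins2 likewise rests on 1 probe, since its other one read 0.164, 0.0361 and 0.119, at or near the floor. Members above wild-type in the double-deficient array were Rfc1 at 0.24, Lig1 at 0.24 and Rpa3 at 0.03.

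**Figure D3:**
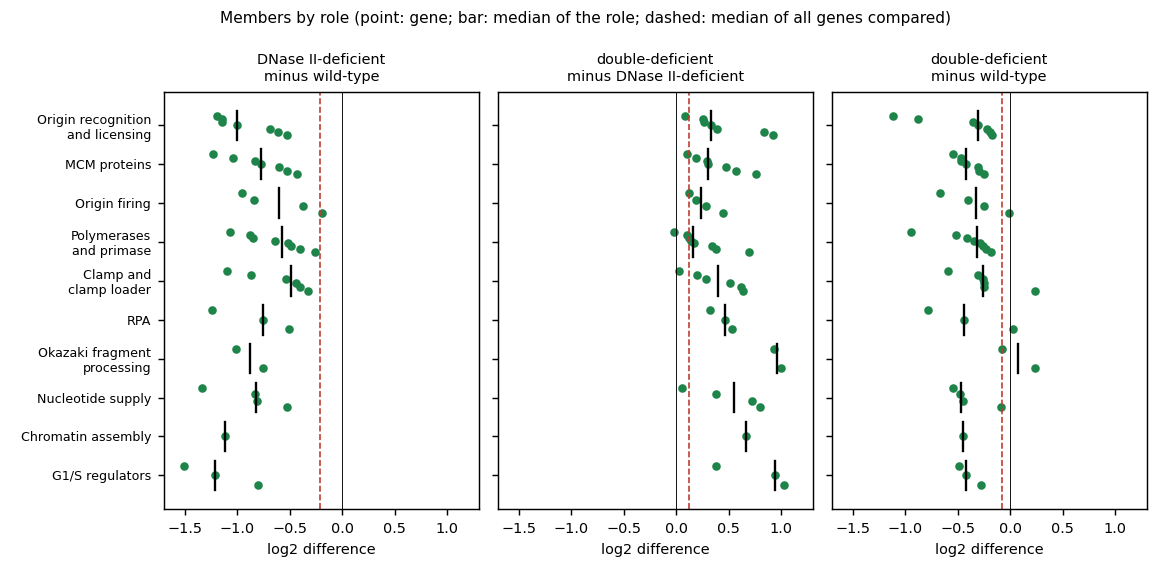
Log2 difference of the 45 members compared in each of the 3 comparisons, by role: points are genes, black bars the median of the role and the dashed line the median of all genes compared. Every role median lies below the dashed line in the first panel, from -1.22 for the G1/S regulators to -0.49 for the clamp and its loader, and above it in the second.

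The size of a member's difference was not tied to its brightness: across the 45 members the correlation between the DNase II-deficient minus wild-type difference and the level on the double-deficient array was -0.05, given as a description across genes that share the arrays. For genes with 2 probes above the level filter, 453 in number, the median gap between the probes' differences was 0.31 and their 90th percentile was 0.87. Smaller differences between members are within the gap that a change of probe can give. Only 4 members had 2 probes.

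Other genes of the same pathways, listed by function, were lower in the DNase II-deficient array less uniformly. Of 36 further replication factors, 23 were compared, with a median of -0.62, which became -0.30 with cyclic loess. At least 1.5-fold lower were 12, against 19.9% of all genes compared, and 2-fold lower 3, against 5.76%. Wdhd1, which links the helicase to polymerase alpha, read 5.61, 1.46 and 2.28, the largest difference of that list at -1.94. Slbp, the histone mRNA binding protein, read 39.9, 18.5 and 29.8. Recql4, a helicase of replication initiation, Pole3, a small polymerase epsilon subunit, and Gins4 differed by -1.16, -0.99 and -0.92. Recql4 was 1 of 2 genes of the list below the array median in DNase II-deficient, which entered through the arrays where they were higher. Of the 21 genes above the median in every array, 11 were at least 1.5-fold lower, with a median of -0.62. Against the median, Rbbp7, a histone chaperone, and Orc3, a further origin complex subunit, were higher, by 0.55 and 0.46. Orc4, named after its values were seen, read 7.03, 8.79 and 5.87. Orc3 read 6.67, 9.18 and 7.13, the opposite order to Orc1 and Orc6.

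Of 39 further genes of nucleotide supply, 30 were compared, and 9 were at least 1.5-fold lower, against 19.9% of all genes compared. Their median was -0.41 against -0.21 over all genes, and became -0.17 against 0.01 with cyclic loess. Dtymk, the thymidylate kinase that acts directly after Tyms and Tk1, read 52.5, 23.3 and 45.8. Cad, which starts pyrimidine synthesis, Ppat, which starts purine synthesis, and Cmpk1, a pyrimidine nucleotide kinase, differed by -0.79, -0.76 and -0.75. The only gene of the list higher by 1.5-fold was Samhd1, the enzyme that breaks down deoxynucleotide triphosphates and an interferon-stimulated gene. It read 10.4, 30.8 and 12.9, with the DNase II-deficient array alone high. Shmt2, a mitochondrial folate enzyme, was the other gene named against the median, by 0.24.

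Other regulators of the G1/S step went in both directions, with 7 of 18 compared at least 1.5-fold lower and 3 higher. Over all genes compared, 19.9% were that much lower and 11.4% higher. E2f4, an E2F with a role in red cell formation, read 31.7, 13.6 and 30.2, and Mybl2, a MYB family regulator of cell cycle genes, read 19.2, 9.34 and 16.5. Tfdp2, an E2F dimer partner, differed by -0.95 and the D-type cyclin Ccnd3 by -0.79. In the opposite direction, Cdc25a, the phosphatase that activates Cdk2, read 1.22, 2.51 and 1.71, and Ccnd2 differed by 0.66. Of the inhibitors of cell division, 9 were compared, but Cdkn1a and Klf4 lay below the array median in wild-type and entered through the arrays where they were higher. Of the 7 above the median in every array, 3 were at least 1.5-fold higher and 2 lower. Cdkn1a, the Cdk inhibitor p21, read 0.551, 4.65 and 1.45, and its double-deficient value lay between the other two. Klf4, a factor linked to growth arrest, read 0.584, 1.53 and 1.18, and Btg1 and Gadd45g, of the same kind, differed by 0.88 and 0.80. Cdkn2c, the Cdk4 and Cdk6 inhibitor p18, read 4.46, 1.53 and 2.84 and went the opposite way, as did Cdkn1c, p57, by -0.67.

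Genes of mitosis were lower beside the members, with a median of -0.68 over 21 genes. At least 1.5-fold lower were 12 of them, against 19.9% of all genes compared. Mki67, the proliferation marker Ki-67, read 307, 133 and 226, and Kif23, a kinesin of cytokinesis, read 2.02, 0.846 and 1.49. Kif23 lay below the array median in DNase II-deficient and entered through the arrays where it was higher. Of the 20 genes above the median in every array, 11 were at least 1.5-fold lower, with a median of -0.65. Cenpf, a kinetochore protein, Birc5, survivin, and Ttk, a spindle checkpoint kinase, differed by -0.96, -0.86 and -0.85. Bub1b, another checkpoint kinase, was the only one compared that was not lower, at 0.07.

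**Figure D4:**
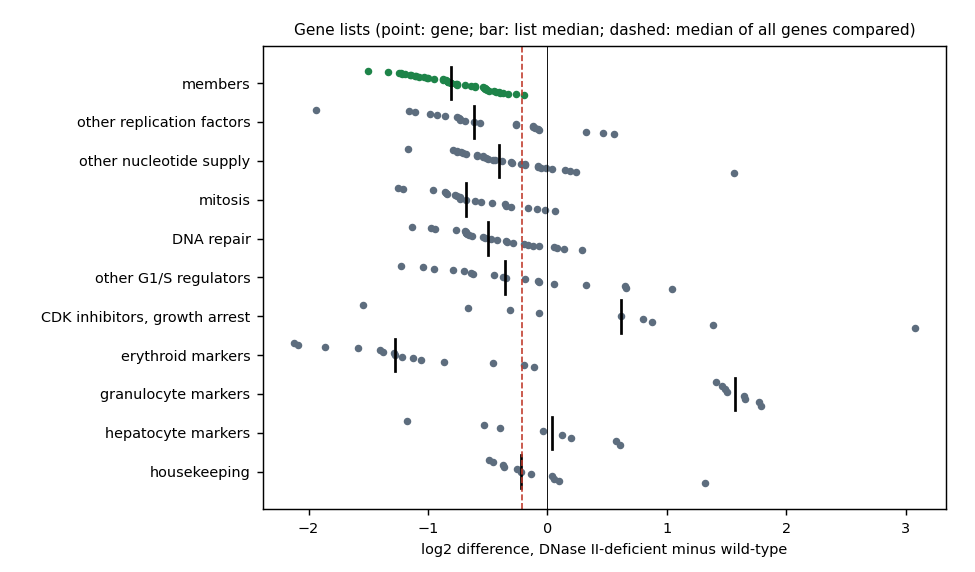
Log2 difference between DNase II-deficient and wild-type for genes above the level filter, by list: points are genes, black bars list medians and the dashed line the median of all genes compared, -0.21. The members lie wholly below 0, erythroid markers have the lowest median of the lists drawn, -1.27, and granulocyte markers the highest, 1.57. The bar of the CDK inhibitors, 0.61, covers 9 genes. It includes Cdkn1a and Klf4, which lay below the array median in wild-type and entered through the arrays where they were higher. Over the 7 above the median in every array, the median was -0.07.

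Of the cell type markers, those of the erythroid lineage moved with the members. All 15 erythroid markers compared were lower in the DNase II-deficient array, where 67.0% of all genes compared were. By 2-fold 11 were lower, against 5.76% of all genes, the median was -1.27 and none was at the floor. The summed erythroid intensity of 734, 285 and 627 had the same order of arrays as most members. Granulocyte markers went the other way, with all 8 compared at least 2-fold higher in the DNase II-deficient array, against 6.10% of all genes. The granulocyte median was 1.57, and sums over 9 genes were 276, 786 and 632. Stem and progenitor markers summed to 20.4, 22.7 and 17.5 over 6 genes of 8 listed, but did not move together. Meis1 differed by -0.57 and Cd34, below the array median in wild-type, by 1.29. Hepatocyte markers had a median of 0.04, which became 0.34 with cyclic loess, and ran from -1.18 for Serpina1a to 0.60 for Afp. Macrophage markers summed to 133, 96.5 and 110.1 over 9 of 13, but went apart: Marco and Cd5l differed by -3.37 and -3.17 and C1qb by 0.83. Megakaryocyte markers summed to 230.1, 166 and 162 over 5 of 6, with a median of -0.12 that became 0.14 with cyclic loess. Endothelial markers summed to 37.5, 26.6 and 33.6 over 7 of 8, with Stab2 at -1.18, Pecam1, below the array median in wild-type, at 1.38 and Flt1 at the floor in every array, and lymphoid markers to 12.7, 10.3 and 11.1 over 7 of 8 with Cd3e at the floor in every array. Housekeeping genes had a median of -0.22, near that of all genes, and 0.07 with cyclic loess. Of 11 interferon-stimulated genes compared, 7 lay below the array median in wild-type and entered through arrays where they were higher, so no list value is given. Irf7, the brightest of them in wild-type, read 3.75, 193 and 2.68. The part of these shifts in the members' values was not tested, and in RNA of a whole liver fewer dividing cells and less of each RNA per cell cannot be told apart.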

How the data were processed

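RNA of E14.5 fetal liver was measured on 3 CodeLink mouse arrays, 1 per genotype. Per the labels, poly(A) RNA was selected, copied into double-stranded cDNA, transcribed with a biotinylated nucleotide, hybridised and stained with Cy5-streptavidin, and the image was quantified with the CodeLink System Software. The sources used here do not state its version, background method or normalization. The values the authors deposited are normalised intensity on a linear scale with array medians of 0.958, 0.959 and 0.963. Each array held 224 to 267 values of 0 or less, a mark of subtracted background, so dim probes hold mostly noise, and the common scale hides any difference in total RNA. Arrays have no depth, and their number limits the precision.

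Of 20289 probes, 125 lacked a value and were left out. The platform annotation, which can be old, gave 15120 probes 1 gene symbol, 38 several and 5131 none, and only the first were named. Deposited intensity below the 25th percentile of its array was raised to that floor before taking log2, with Python 3.11.15, numpy 2.4.6 and pandas 2.3.3. A gene with several probes was represented by the brightest. A gene was compared if its mean log2 level over the 3 arrays exceeded the mean log2 array median. Without replicates no statistical test was run. On simulated arrays with planted differences, the steps up to the log2 difference gave medians close to those planted. The counting and list steps were not checked in this way.

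Values in all arrays were printed for members at least 1.5-fold different between DNase II-deficient and wild-type, for the member with the smallest difference in each role and for dim members. Other lists contributed up to 5 genes by size of difference and at most 2 that opposed the list median. The members and lists were chosen with earlier results of these data known. Alternatives covered 4 scalings, the floor, the level filter and the probe standing for a gene.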

Additional observations from a re-analysis of the deposited data

How the results depend on the processing

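No paired analysis was possible because each genotype has 1 array and no test was made. Of 165 values for the members as a group under 11 alternatives, 144 stayed within a factor of 1.5 for a count or 0.1 for a median. The other 21 were as follows. Between DNase II-deficient and wild-type, members 2-fold lower numbered 14 as deposited, 6 with quantile normalization, 8 with scaling to the 75th percentile, 4 with cyclic loess and 5 with centring on all genes, and members 1.5-fold lower went from 30 to 17 with loess. The median of -0.81 became -0.58, -0.67, -0.52 and -0.59 in the same order, while that of all genes became -0.08, -0.08, 0.01 and 0.00. Between double-deficient and DNase II-deficient, the count 2-fold higher went from 1 to 0 under those 4 scalings, the count 1.5-fold higher from 13 to 7 with loess, and the median from 0.38 to 0.25 with quantile normalization, 0.20 with loess and 0.26 with centring. Between double-deficient and wild-type, the count 2-fold lower went from 1 to 0 with quantile normalization, loess, the mean of all probes and the dimmest probe. With the dimmest probe, Cdc6 in that comparison reversed from -1.11 to 0.011, since that probe is at the floor in every array. Of the 46 measured members, 43 were lower in DNase II-deficient than in wild-type under every setting, the exceptions being Cdc7, Pold1 and Rrm1. Of 2-fold calls among all genes, the share that was higher went from 45.2% to between 29.6% and 36.1% in the second comparison under the 4 scalings. The cause of these shifts was not tested.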

Other observations

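Genes of DNA repair and its checkpoints, which share enzymes with the replication fork, were lower in the DNase II-deficient array to a lesser degree than the members. Of 40 listed genes, 26 were compared, and 11 lay 1.5-fold or more below wild-type, against 19.9% of all genes compared. None was that much higher, where 11.4% of all genes were. The median log2 difference was -0.50 against -0.21 over all genes. In the DNase II-deficient array, 1 gene compared lay below the array median. Of the 25 above the median in every array, 10 were 1.5-fold lower, with a median of -0.47. Chek2, a checkpoint kinase, read 14.3, 6.52 and 10.3 in wild-type, in DNase II-deficient and in double-deficient liver. Ung, the glycosylase that removes uracil from DNA, read 3.20, 1.63 and 2.08. Xrcc6, the Ku70 subunit of end joining, differed by -0.94, Prkdc, the kinase it recruits, by -0.76, and Parp1, a sensor of strand breaks, by -0.69. Rad23b, a nucleotide excision repair factor, and Atr, the kinase that responds to stalled forks, were higher by 0.29 and 0.14.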
